A study of Mus musculus with 6 samples.

Results

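The liver packages fat for export in lipoproteins, and the 10 genes described here encode the editing factors, the lipid transfer protein and the apolipoproteins of that route. They were A1cf, Apobec1, Apob, Mttp, Apoa1, Apoc3, Apoa4, Apoa5, Apoe and Apom, 10 of 18193 genes for which the array annotation gave a probe set with a single symbol. The members were chosen by name, after A1cf had been seen to differ between the groups. Their differences between groups, and where the fit over all genes called one of them, are therefore given as a description that supports nothing further. Each gene was read from its brightest probe set by the mean of the 6 arrays. All 10 passed the filter, which asked that 3 or more arrays reach a log2 value of 4. Of 17 probe sets of the members, 7 were further ones, and these are given beside the ones used.

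Livers of 6-week-old male C57BL/6 mice were profiled on Affymetrix arrays, 1 array per mouse, with 3 mice of the genotype p14 KO (KO 1 to KO 3) and 3 of the genotype p14 WT (WT 1 to WT 3). In the KO mice p14, the product of Lamtor2 and a late-endosomal adaptor, was deleted conditionally in liver. Neither the Cre driver nor the presence of a floxed allele in the controls is given in the sources used here. Whole liver was homogenised, so that hepatocytes and the other cells of the organ were measured together.

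Apolipoprotein B is the large structural protein of very-low-density lipoprotein (VLDL). In mouse liver its mRNA can be edited at a single cytidine by Apobec1, a deaminase that needs an RNA-binding partner such as A1cf, and the edited mRNA encodes a shorter protein, apoB48. Mttp loads lipid onto nascent apoB, and the smaller apolipoproteins coat the particles and steer lipases, enzymes and receptors. The arrays measured transcript levels and did not read the edited base.

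Lamtor2 was lower on each KO array, at 10.08, 10.19 and 10.11 against 11.32, 11.29 and 11.35 in WT (log2). Hepatocyte markers were bright in both groups, with the log2 of their summed signal over 8 genes between 18.56 and 18.64 in KO and between 18.55 and 18.63 in WT. Kupffer cell and macrophage markers were lower in KO, with summed levels (14 genes) of 13.48, 13.68 and 14.41 on KO 1, KO 2 and KO 3 and 14.64 to 14.79 in WT. WT 2 carried skeletal muscle transcripts, with a summed level of 14.91 over 7 genes against 5.44 to 5.71 on the other arrays. Of 6 enterocyte markers, which would accompany intestinal apolipoprotein transcripts, Vil1, Cdh17 and Lct lay at 2.18 on all arrays, near the lowest value of the table, and Cdx2 at 2.76 to 3.19. The other two were expressed on every array, Fabp2 at 11.11 to 11.87 and Lgals4 at 6.98 to 7.44. In a whole-tissue sample, fewer cells of a type and less RNA per cell cannot be told apart.

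A1cf, the RNA-binding partner in the editing complex, showed the largest difference of the 10 genes. Its probe set (Entrez gene 69865, chromosome 19) measured 9.75, 9.46 and 9.38 on KO 1, KO 2 and KO 3 and 7.64, 8.03 and 7.47 on WT 1, WT 2 and WT 3. All 3 KO livers lay above all 3 WT livers, and the lowest KO value exceeded the highest WT value by 1.35, or 2.56-fold. The KO mean was 9.53 ± 0.19 and the WT mean 7.71 ± 0.29 (log2, SD, n = 3 each). The difference of 1.82 (standard error 0.18) is a 3.53-fold higher signal in KO, with a 95% interval from limma of 2.61-fold to 4.76-fold. A1cf was the 1 member of 10 past a Benjamini-Hochberg adjusted p of 0.05 in limma, where 0.17% of 10009 genes were called in either direction and 0.02% as higher in KO. It was chosen with that call known, and nothing is read from the count. The call was lost when KO 1, KO 2, WT 1, WT 2 or WT 3 was left out, while the difference stayed between 1.70 and 1.98. Differences of at least 2-fold, higher in KO, were found for 0.769% of the genes. A1cf had this 1 probe set only, so isoforms could not be compared.

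The bases before the A1cf start are shown because A1cf is the member with the clearest separation of groups. The window of 250 bases lies at chr19:31868563-31868812 (plus strand, RefSeq sequence, GRCm38.p6), and capitals mark a TCAAAGG match.

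A1cf: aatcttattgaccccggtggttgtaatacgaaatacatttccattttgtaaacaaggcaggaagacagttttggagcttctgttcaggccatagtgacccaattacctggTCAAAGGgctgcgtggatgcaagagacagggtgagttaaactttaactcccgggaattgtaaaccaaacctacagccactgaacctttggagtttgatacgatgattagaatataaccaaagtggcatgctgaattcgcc

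TCAAAGG, searched as a nuclear receptor core, is a short match and does not show which factor, if any, binds. On either strand it was present in 4.16% of the 32851 windows of this length in the RefSeq table, and in the windows of A1cf and Apob among the members. The other motifs searched had no match in the A1cf window. They were CAAAGTNC (HNF4 type), an HNF1-type element, TTGCNNAA (C/EBP type), TTCNNNGAA (STAT type), TGACGT (cAMP response core) and TATAAA, each read on both strands. Motif matches are descriptions of the sequence, and these motifs were picked with the windows and the array results in view.

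Apobec1, the catalytic deaminase of the complex, had groups that touched. It measured 7.52, 7.98 and 7.76 on the KO arrays and 7.39, 7.52 and 7.47 on the WT arrays. KO 2 and KO 3 lay above every WT array, and KO 1 was level with WT 2. The difference was 0.29 (standard error 0.13), or 1.23-fold with a 95% interval of 0.984 to 1.53, which includes no change.

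**Figure D1:**
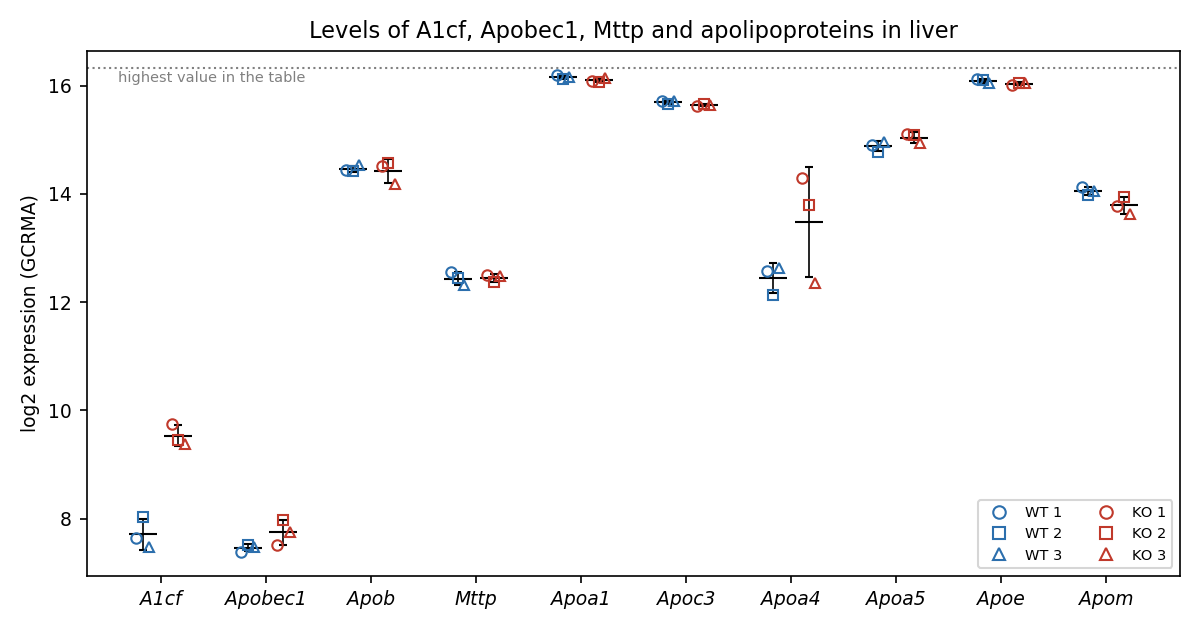
Log2 expression of each of the 10 genes on each array (open symbols, blue WT and red KO, shape by mouse number), with the group mean and SD in black (n = 3 each); the dotted line marks the highest value in the table, 16.33. A1cf is separated between groups by 1.35, Apoa4 is high on KO 1 and KO 2 only, and Apoa1, Apoc3 and Apoe lie close to the top of the scale.

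Apob, the editing target and the structural protein of VLDL, had overlapping groups. Its brighter probe set measured 14.52, 14.57 and 14.18 in KO and 14.44, 14.43 and 14.53 in WT, with KO 1 inside the WT range, KO 2 the highest array and KO 3 the lowest. The difference was -0.04 (standard error 0.12), with a 95% interval of -0.34 to 0.25. It was 0.08 without KO 3 and 0.02 after median centring of the arrays, so no direction can be given. A second probe set of Apob, dimmer at 11.53, 11.32 and 11.11 in KO and 11.16, 11.18 and 10.91 in WT, differed by 0.23, again with overlapping groups. It was the 1 further probe set of 7 whose sign differed from that of the probe set used.

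Mttp, which transfers triglyceride to apoB in the endoplasmic reticulum, was at nearly the same level in both groups. The brighter probe set measured 12.50, 12.37 and 12.48 in KO and 12.55, 12.44 and 12.31 in WT. The difference was 0.02 (95% interval -0.19 to 0.23), and it was -0.01 without KO 1 and -0.04 without WT 3. The second probe set measured 11.96, 11.95 and 12.02 in KO and 11.92, 11.83 and 11.72 in WT, a difference of 0.15, and here the KO arrays lay just above the WT arrays, by 0.03. The interval of the brighter set leaves room for a change of up to 1.17-fold.

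**Figure D2:**
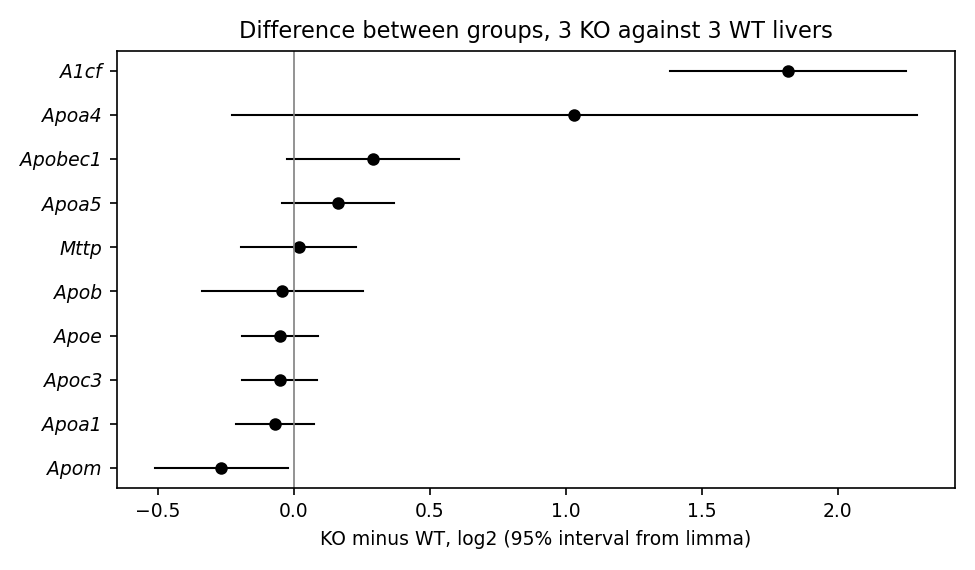
Difference between group means (KO minus WT, log2) for each of the 10 genes, with the 95% interval from the limma fit (3 KO and 3 WT livers). A1cf, at 1.82, lies far from 0, Apoa4 has the widest interval (-0.23 to 2.29), and the intervals of 8 of the genes include 0.

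Apoa1, Apoc3, Apoa4 and Apoa5 are direct neighbours on chromosome 9 in the RefSeq gene order, in that sequence, with no other protein-coding gene between them. Their values in KO livers differed from gene to gene. Apoa4 and Apoa5 were highest on KO 1 and KO 2, while Apoa1 and Apoc3 were slightly lower in KO.

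Apoa4, an apolipoprotein of triglyceride-rich particles and high-density lipoprotein (HDL) that fasting and fat loading raise in mouse liver, varied most within KO. The brighter probe set measured 14.29, 13.79 and 12.34 on KO 1, KO 2 and KO 3, against 12.58, 12.13 and 12.63 on the WT arrays. KO 1 and KO 2 lay above every WT array, and KO 3 lay within the WT range. The second probe set showed the same split of the KO arrays, with 14.22, 13.63 and 11.93 in KO and 12.27, 11.81 and 12.15 in WT. The means were 13.48 ± 1.01 and 12.45 ± 0.27 (log2, SD, n = 3 each), and the SD in KO was the largest of the 10 genes. The difference was 1.03 (standard error 0.51, 95% interval -0.23 to 2.29). It was 0.62 without KO 1 and 1.60 without KO 3. On the same arrays Saa1, an acute-phase apolipoprotein of HDL chosen after its values were seen, measured 15.83, 15.78 and 12.22 in KO and 10.83 to 12.03 in WT. The macrophage markers, at 13.48, 13.68 and 14.41 on KO 1 to KO 3, were also nearest to WT on KO 3. Of the enterocyte markers, Vil1, Cdh17 and Lct lay at 2.18 on all arrays and Cdx2 at 2.76 to 3.19. Fabp2, from the same list, measured 11.87, 11.58 and 11.11 on KO 1 to KO 3. It lay above every WT array on KO 1 and KO 2 and below every WT array on KO 3. The Pearson r with Apoa4 over the 6 arrays was 0.8 for Fabp2 and 0.92 for Saa1. Lgals4, at 7.07, 7.39 and 7.02 in KO, stayed within its WT range. The part of Saa1, the macrophage markers or the enterocyte markers in the Apoa4 result was not tested.

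Apoa5, a minor plasma protein that promotes lipolysis by lipoprotein lipase, had a narrow range. It measured 15.11, 15.08 and 14.93 in KO and 14.91, 14.78 and 14.95 in WT. KO 1 and KO 2 were again the highest arrays, and KO 3 fell between WT 1 and WT 3. The difference was 0.16 (standard error 0.08, 95% interval -0.04 to 0.37), or 1.12-fold.

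The windows before the starts of these neighbours are shown because both genes had their highest values on KO 1 and KO 2. Apoa4 lies at chr9:46240594-46240843 and the first of 2 Apoa5 windows at chr9:46268358-46268607 (both plus strand, RefSeq, GRCm38.p6), with matches in capitals.

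Apoa4: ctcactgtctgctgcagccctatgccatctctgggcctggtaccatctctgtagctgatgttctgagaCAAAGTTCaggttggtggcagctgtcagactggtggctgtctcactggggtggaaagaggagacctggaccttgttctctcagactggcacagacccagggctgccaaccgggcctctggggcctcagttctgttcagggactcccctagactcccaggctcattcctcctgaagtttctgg

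Apoa5: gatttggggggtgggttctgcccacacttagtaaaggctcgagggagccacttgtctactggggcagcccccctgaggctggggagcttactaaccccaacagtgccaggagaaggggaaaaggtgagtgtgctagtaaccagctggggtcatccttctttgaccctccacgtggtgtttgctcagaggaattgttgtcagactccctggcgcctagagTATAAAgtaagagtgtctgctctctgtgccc

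The match before Apoa4 is CAAAGTTC, of the HNF4 type CAAAGTNC, which 3.4% of all windows held and which was also present before Apobec1. The match before Apoa5 is TATAAA, 31 to 26 bases before the start, a motif that 12.4% of all windows held. No motif of the set was shared by the 2 windows shown, and the STAT type TTCNNNGAA, present in 7.02% of all windows, had no match in any of the 12 windows of the members. Windows were found for 9 members and not for Apoc3.

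Apoa1, the main protein of HDL, was lower in KO by a small amount on each of its 4 probe sets. The one used measured 16.08, 16.07 and 16.13 in KO and 16.20, 16.13 and 16.16 in WT, where KO 3 and WT 2 were level. The difference was -0.07 (95% interval -0.21 to 0.07), and the 3 further probe sets gave -0.06, -0.08 and -0.07. After median centring it was 0.00 on the one used. On the 3 further ones the groups did not overlap, but the gaps were 0.004, 0.047 and 0.016. Groups that did not overlap and were lower in KO were found for 14% of all genes. The probe sets of Apoa1 may share target sequence and are not independent measurements.

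Apoc3, an inhibitor of lipoprotein lipase and of remnant uptake, measured 15.63, 15.65 and 15.65 in KO and 15.72, 15.66 and 15.71 in WT. All KO arrays lay below all WT arrays, but the gap was 0.005 and the difference -0.05 (95% interval -0.19 to 0.09). After median centring the sign was reversed, at 0.02. The top of the scale may limit both genes, which was not tested. The highest value of any probe set was 16.33, and the brightest Apoa1 array lay 0.13 below it and the brightest Apoc3 array 0.61 below it, so true differences may be compressed there.

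Apoe, the ligand of lipoprotein receptors on remnants, is made by hepatocytes and by macrophages. It measured 16.00, 16.05 and 16.05 in KO and 16.11, 16.09 and 16.05 in WT. KO 2, KO 3 and WT 3 were level, and the difference was -0.05 (95% interval -0.19 to 0.09), with 0.02 after median centring. Its brightest array lay 0.22 below the highest value of the table. All 14 macrophage markers had lower means in KO (median -0.86). Their part in the Apoe value was not tested.

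Apom, the HDL carrier of sphingosine-1-phosphate, was the member furthest below 0. It measured 13.78, 13.95 and 13.64 in KO and 14.12, 13.98 and 14.06 in WT, and the second probe set measured 13.60, 13.72 and 13.52 in KO and 13.81, 13.78 and 13.79 in WT. On both probe sets every KO liver lay below every WT liver, by a gap of 0.03 and 0.06. The difference on the one used was -0.27 (standard error 0.10, 95% interval -0.51 to -0.02), which puts the KO signal at 83.1% of WT. It was -0.18 on the other. Apom did not pass the threshold (limma adjusted p = 0.325), and the interval is not adjusted for the number of genes. Of all genes, 14% had groups that did not overlap and were lower in KO.

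Over the 10 genes, 5 were higher and 5 lower in KO, with a median difference of -0.01, against -0.04 over all 10009 genes. Groups did not overlap for A1cf, Apoc3 and Apom, 3 of 10, where 20.5% of all genes had groups that did not overlap (6.54% higher and 14% lower in KO). The share among the members is not read as a result, since the same contrast was in view when they were chosen.

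The pathway around these genes was followed in 5 lists, of which 75 different genes passed the filter. Over all 10009 genes 41.3% were higher in KO. The counts of higher and lower genes given per list below stand beside that share and were not tested. In limma 0 of the 75 passed an adjusted p of 0.05, where 0.17% of all 10009 genes did. The trended and robust variance model and the ordinary two-sample test also called 0 of the 75. They called 24 and 3 among all genes. With so few calls, the 0 is not read as a result about the lists. Of the 75, 7 had an unadjusted p under 0.05 in limma, where 14.5% of all genes did.

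Other apolipoproteins differed little. Of 11 past the filter 5 were higher and 6 lower in KO. Their median was -0.01, and 0 had an unadjusted p under 0.05 in limma. Clu, or apolipoprotein J, differed by 0.13, and its 3 KO arrays lay above its 3 WT arrays, while Apon differed by 0.31. Groups did not overlap for 3 of the 11, and of these only Clu was higher in KO. Over all genes 20.5% had groups that did not overlap. Apoc2, the activator of lipoprotein lipase, differed by -0.20. Apool, which despite its name is a subunit of the mitochondrial cristae complex, differed by 0.16. For these 4 genes limma gave adjusted p-values from 0.424 to 0.493.

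Partners of the editing complex and related deaminases (13 genes past the filter) had 4 members higher and 9 lower, with a median of -0.05. Hnrnpr, an RNA-binding protein, measured 10.47, 10.41 and 10.48 in KO and 10.19, 10.15 and 10.27 in WT, a difference of 0.25 (limma adjusted p = 0.24). Bag4, a co-chaperone reported to bind Apobec1, differed by -0.25 (limma adjusted p = 0.25), although 1 of its 2 further probe sets differed by 0.19. Hnrnpab, a further binding protein of Apobec1, differed by 0.30, and its 4 further probe sets by -0.09 to 0.02. Rbm47, which can serve as an editing cofactor in place of A1cf, measured 9.46 in KO and 9.69 in WT (limma adjusted p = 0.617) and was named outside the rule, for its function. Kpna2, an importin, differed by -0.22.

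Genes of VLDL assembly and secretion (19 past the filter) had 9 members higher and 10 lower, with a median of -0.01. Mia2, which helps load large lipoprotein cargo at exit sites of the endoplasmic reticulum, stood apart in this list. It measured 7.89, 7.63 and 7.96 in KO and 6.41, 7.20 and 6.25 in WT. Its 3 KO arrays all lay above its WT arrays, and the difference was 1.20 (standard error 0.26), which missed the threshold (limma adjusted p = 0.204). Tm6sf2, a protein of VLDL lipidation, differed by -0.32, Aadac by 0.15 and Pla2g12b by -0.14, with limma adjusted p between 0.404 and 0.547.

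Lipoprotein receptors and HDL genes (13 past the filter) had 4 members higher and 9 lower, with a median of -0.09. Vldlr, a receptor that takes up triglyceride-rich particles, measured 6.82, 7.71 and 8.14 on KO 1, KO 2 and KO 3 and 8.84, 8.75 and 8.12 in WT. KO 1 and KO 2 lay below every WT array and KO 3 was level with WT 3. The difference was -1.02 (limma adjusted p = 0.327), and the 4 further probe sets lay between -1.32 and -0.54. Stab1, a scavenger receptor of sinusoidal endothelium and macrophages, differed by -0.38 (limma adjusted p = 0.25), beside macrophage markers with a median of -0.86 and endothelial markers with a median of -0.29. Their part in the Stab1 value was not tested. Sorl1, a sorting receptor, lay near the filter level, at 4.29, 4.38 and 4.27 in KO and 4.58, 5.11 and 4.38 in WT. It differed by -0.38 (limma adjusted p = 0.406), and its highest array was WT 2, which carried muscle transcripts. Lsr, a lipolysis-stimulated receptor, differed by -0.18.

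Transcription factors known to act on apolipoprotein genes (19 past the filter) had 5 members higher and 14 lower, and their median was -0.07. Thus 26.3% were higher in KO, where 41.3% of all genes were. Cebpa measured 12.83, 12.82 and 12.83 in KO and 13.25, 12.95 and 13.22 in WT, a difference of -0.32 (limma adjusted p = 0.283). Foxa2 differed by -0.67 and Hnf4a, a main activator of apolipoprotein genes, by -0.20. In both every KO liver lay below every WT liver (limma adjusted p = 0.318 and 0.347). Creb3l3, the liver factor that drives Apoa4 and Apoa5 in fasting, measured 13.01, 13.06 and 12.73 in KO and 12.72, 12.67 and 12.72 in WT. Its difference of 0.23 did not pass (limma adjusted p = 0.362). Any part of Creb3l3 in the Apoa4 and Apoa5 values was not tested. Of the 7 genes of the lists at an unadjusted p under 0.05, 2 belonged here.

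**Figure D3:**
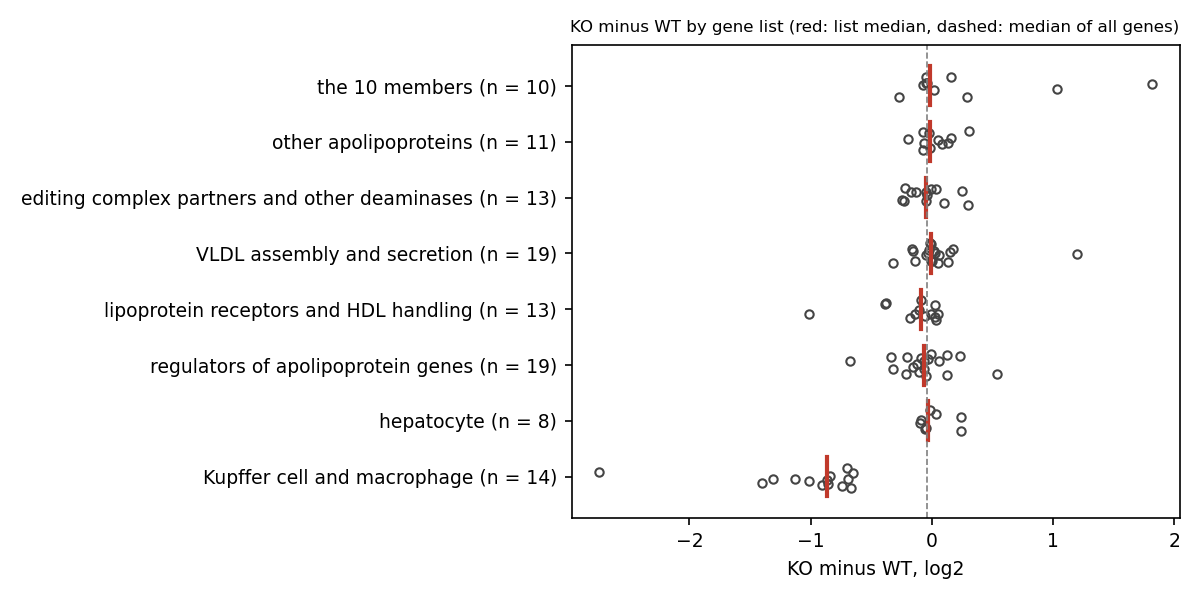
KO minus WT (log2) for the genes past the filter in each list (open circles), with the list median in red and the median of all 10009 genes as a dashed line. The pathway medians lie between -0.09 and -0.01, A1cf (1.82), Mia2 (1.20) and Apoa4 (1.03) lie furthest to the right, and the macrophage markers have a median of -0.86.

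The genes whose profile was most like that of A1cf over the 6 arrays were Mrps23 (Pearson r = 0.994), Agap1 (0.992), Lrrc57 (0.991), Ctbs (0.976) and Arl1 (0.976). The genes most opposite to it were Pltp (r = -0.996), Dnmt1 (-0.994) and Nuf2 (-0.992). With 6 arrays in 2 groups and 10009 genes to choose from, such values describe the separation of the groups and carry no test. Mrps23, a mitochondrial ribosomal protein, differed by 0.34, although its second probe set differed by -0.16. Agap1 differed by 0.73 and its second probe set by -0.04. Lrrc57, Ctbs and Arl1 differed by 0.14, 0.27 and 0.10. Pltp, the plasma phospholipid transfer protein, differed by -0.92 and by -1.11 on a further probe set, and Dnmt1, the maintenance DNA methyltransferase, by -0.41 and -0.94. Nuf2, a kinetochore gene, measured 2.26, 2.26 and 2.78 in KO, all below the filter level of 4, and 4.61, 4.26 and 4.81 in WT. It passed the filter through its WT arrays alone, so that it had to differ. The groups did not overlap for any of the 8 genes, where 20.5% of all genes had such groups. Their choice by likeness to A1cf all but fixed this, and it is not read as a result.

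**Figure D4:**
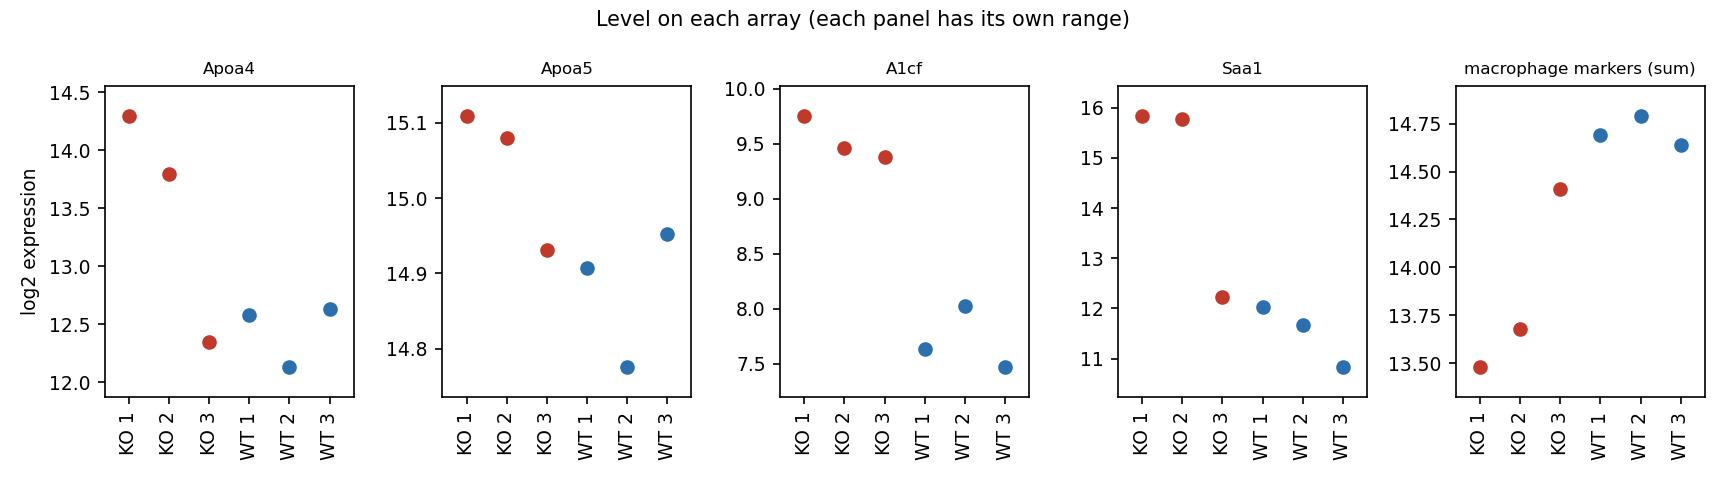
Level on each array (log2, red KO and blue WT, each panel with its own range) of Apoa4, Apoa5, A1cf and Saa1, and the log2 of the summed signal of the 14 macrophage markers. Apoa4, Apoa5 and Saa1 are highest on KO 1 and KO 2, with KO 3 near or within WT, whereas A1cf is high on all 3 KO arrays.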

How the data were processed

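The authors deposited log2 expression per probe set, 1 column per array. The submitters' processing notes name R 2.9.1 and GCRMA 2.16.0, with other settings not given in the sources used here. That the scale is log2 was inferred from the values, which ran from 2.185 to 16.327, with 28.9% at the lowest value. The number of arrays limits the precision.

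Probe sets were named by the platform annotation, 34945 of 45101 with a single symbol. The brightest probe set stood for each gene, and 10009 of 18193 genes reached a log2 value of 4 on 3 or more arrays. The KO and WT groups were compared by a two-sided moderated test (limma 3.58.1, R 4.3.3, no covariates) with Benjamini-Hochberg adjustment over all 10009 genes, and the script was checked on simulated data. Each pathway list gave its 4 genes with the smallest p; 5 genes most like and 3 least like A1cf were named. Among the named genes outside the 10 members, 22 of 27 further probe sets had the same sign. The members, lists and rules were chosen with earlier results of these data known. Promoter sequences were RefSeq windows of GRCm38.p6, of which 250 bases before the start were used. The deposited labels call each mouse a biological replicate. Equal replicate numbers were not treated as pairs in the main fit, and the labels do not say whether they mark pairs. Figures were drawn with matplotlib 3.10.9.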

Additional observations from a re-analysis of the deposited data

How the results depend on the processing

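The number of genes past the threshold in limma was 17, and the number of members past it 1. Of all genes, 3 passed with no filter, 10 with the filter at a log2 value of 6, 3 with the ordinary two-sample test and 3 without both KO 3 and WT 2. With 1 array left out the count ran from 1 to 140, the highest without KO 3, and members from 0 to 1. With the replicate number as a block it was 0 (limma, with 1235 at an unadjusted p under 0.05). Under the block, with no filter, with every probe set tested and without both KO 3 and WT 2, 0 members passed (limma, with 2 at an unadjusted p under 0.05 each time). With the ordinary test it was 0 members too, with 1 at an unadjusted p under 0.05. The labels give same-numbered mice a shared number and nothing more. Deviations of same-numbered arrays correlated at -0.09, -0.08 and -0.14, which cannot decide whether the mice were paired. A1cf ran from 1.70 to 2.05 over the 18 alternatives, and its separated groups fix the sign when arrays are left out. It passed in 8 of them, with an adjusted p of 0.0251 to 0.231 in the limma alternatives and 0.249 in the ordinary test. A1cf was chosen with its call known. Apoa4, Apoa5 and Apobec1 stayed above 0 and Apom below 0 in these alternatives, and the count of calls among them stayed at 0. Signs turned for Apob (0.02 with median centring, 0.10 with the mean of probe sets, -0.12 to 0.08 with 1 array left out, 0.06 without both KO 3 and WT 2), for Apoc3 and Apoe (0.02 each with median centring) and for Mttp (-0.04 to 0.08 with 1 array left out, with -0.01 without KO 1). The causes were not tested. The probe sets of Apoa1, Apoc3 and Apoe were bright. The top of the scale may limit what can be seen for them, which was not tested.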
